A study of Tachysurus fulvidraco x Tachysurus vachelli with 9 samples.

Results

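The intestinal transcriptome of transported fish that had been returned to control conditions for 96 h (Rec) was set against that of untreated fish (Ctrl). The fish were hybrid yellow catfish, from *Tachysurus fulvidraco* females and *Pseudobagrus vachellii* males, and the tissue was posterior intestine. The Rec fish had spent 16 h in bags on a shaker that simulated transport, and a further group, Str, was sampled at the end of those 16 h. The Ctrl fish were sampled at 0 h, and food had been withheld for a day before transport. The sources do not say whether the Rec fish were fed during recovery. Feeding and the day of sampling therefore cannot be told apart from recovery itself in any difference below. Each group had 3 individuals with a library each, and the sources do not say which bag each fish came from, so a bag and a fish cannot be told apart. The comparison used 6 of the 9 libraries and the 17244 of 26163 genes that had at least 1 FPKM (fragments per kilobase of transcript, scaled to library depth) in at least 3 of the 9 libraries. Deposited counts summed to between 54829614 and 73110636 in the Rec libraries and to between 60670586 and 63899568 in the Ctrl libraries. Intestinal markers were present: *cdh17* was at 239 to 640 FPKM in Rec and 248 to 338 FPKM in Ctrl, and *vil1* was at 113 to 419 FPKM in Rec and 153 to 242 FPKM in Ctrl.

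Handling and crowding of fish release cortisol, whose receptor switches on genes such as *fkbp5* within hours. The posterior intestine absorbs fatty acids and proteins, packs lipid into lipoproteins, renews its epithelium from dividing crypt or fold-base cells, and holds resident lymphocytes and phagocytes below that epithelium. Differences between recovered and untreated fish can therefore lie on the side of the transported fish (residual) or on the opposite side of untreated fish (overshoot). The level in Str is given beside part of the genes for this reason. Where it is not given, a difference is not placed on either side.

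The differences at 96 h were uneven between fish. edgeR called 0 genes at an adjusted p below 0.05, and its smallest adjusted p was 0.348. At an unadjusted p below 0.05 it found 1002 genes (5.81% of those tested, against the 5% of the threshold), 587 higher (3.4%) and 415 lower (2.41%). With the study's screening criteria, an unadjusted p below 0.05 and a log2 fold change of at least 1 in size, 691 genes were called (4.01%), 429 higher in Rec (2.49%) and 262 lower (1.52%). Below, "called" refers to these criteria, and the calls of every list stand against 2.49% higher and 1.52% lower among all tested genes. DESeq2 found 115 genes at an adjusted p below 0.05 (0.667%), 81 higher (0.47%) and 34 lower (0.197%), and 111 of them were among the 691. When DESeq2 was repeated without each of the 6 libraries, 19 of the 115 (13 higher, 6 lower) passed every time. Without Ctrl-2, 40 of them passed. The DESeq2 adjusted p-values below come from the fit with all libraries, whereas refits of named genes are those of edgeR. The split between higher and lower depends on the scale: limma on log2(FPKM + 1) gave 188 higher and 285 lower with the same criteria, and the median of all genes lay at 0.00 in edgeR and at -0.15 on that scale. Without Rec-3 edgeR gave 501 higher and 507 lower. On the log2(FPKM + 1) scale the list medians given below as positive turned negative for bile acid genes (-0.08), PPAR signaling (-0.02), the glucocorticoid response (-0.10), heat shock genes (-0.08) and collagens (-0.08).

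The Rec fish differed among themselves at least as much as they differed from Ctrl fish. The median absolute difference in log2 CPM (counts scaled to library size) between 2 libraries was 0.53 to 0.74 within Rec, 0.40 to 0.70 between Rec and Ctrl and 0.35 to 0.53 within Ctrl. When the fit was repeated without each of the 6 libraries in turn, 169 of the 691 genes (24.5%) stayed called every time, and 522 (75.5%) were lost without at least 1 library. Each refit had fewer fish in a group, so a call near either limit could be lost whichever fish was left out. Leaving out Rec-2 lost the most genes, 320, and leaving out Rec-1 the fewest, 161. The total called was 500 without Ctrl-2 and 1203 without Rec-1. In 89 of the 429 higher genes (20.7%) a single Rec library held over 66.7% of the summed Rec FPKM, which was the case for 9.46% of all tested genes. That library was Rec-3 for 45 genes, Rec-2 for 32 and Rec-1 for 12. Among the 262 lower genes, 43 (16.4%, against 4.77% of all tested genes) owed over 66.7% of the Ctrl sum to a single Ctrl library, which was Ctrl-3 for 22, Ctrl-1 for 19 and Ctrl-2 for 2. Genes that stayed called without each library and whose FPKM did not overlap between the groups numbered 147, with 89 higher and 58 lower. Without regard to calls, FPKM did not overlap and Rec was higher in 442 genes (2.56%) or lower in 1279 (7.42%), and with a mean FPKM + 1 at least 2-fold apart in 148 (0.858%) or 224 (1.3%).

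**Figure D1:**
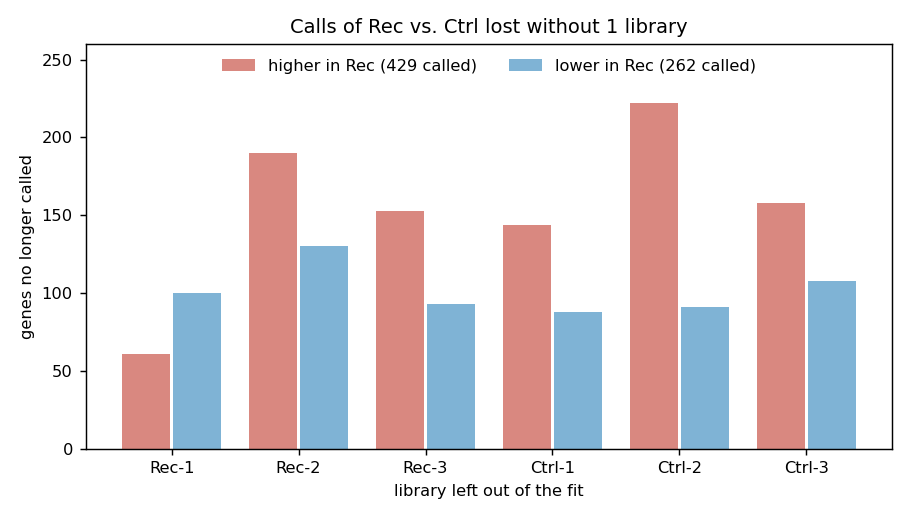
Number of genes of the Rec vs. Ctrl comparison (y axis) that were no longer called when the library on the x axis was left out of the fit. Red bars are genes called higher in Rec and blue bars genes called lower. Without Rec-1, 61 of the 429 higher genes were lost, and without Ctrl-2, 222.

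Among genes that respond to glucocorticoids, 3 were called higher in Rec, on the side of the transported fish. *fkbp5*, a co-chaperone that restrains the glucocorticoid receptor, was at 46.8, 43.4 and 52.0 FPKM in Rec, against 21.1, 11.3 and 13.8 FPKM in Ctrl. The groups did not overlap and the Rec fish lay close together. The log2 fold change was 1.73 ± 0.39 (SE), with an adjusted p = 0.809 in edgeR and an adjusted p = 0.0012 in DESeq2. Without single libraries the log2 fold change lay between 1.499 and 2.26. In Str it averaged 1125 FPKM, so the Rec level was far nearer to Ctrl than to Str. *cebpd*, a transcription factor induced by glucocorticoids and cytokines, was at 184, 81.8 and 68.0 FPKM in Rec, against 25.5, 24.4 and 54.3 FPKM in Ctrl, and averaged 414 FPKM in Str. It too was called without each library, with log2 fold changes of 1.34 to 2.26. *ddit4*, an inhibitor of the growth kinase mTORC1, was at 416, 43.8 and 89.6 FPKM in Rec, against 31.0, 24.99 and 10.7 FPKM in Ctrl, with a mean of 866 FPKM in Str. Rec-1 was highest for both *cebpd* and *ddit4*, and the log2 fold change of *ddit4* was 1.66 without it and 3.11 with all libraries.

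Most other genes of this list were not called. Of 33 tested genes of the glucocorticoid and fasting response, 3 were called higher and 1 lower, with a median log2 fold change of 0.15 that was -0.06 without Rec-1. Without Ctrl-3 5 were called higher, and the number called lower was 3 without Rec-1 and 0 without Rec-2 or Ctrl-2. *klf9* was at 3.92 to 18.2 FPKM in Rec and 6.57 to 12.3 FPKM in Ctrl and averaged 88.2 FPKM in Str. *dusp1* was at 13.8 to 20.6 FPKM in Rec and 11.1 to 27.2 FPKM in Ctrl and averaged 120 FPKM in Str. A *sgk1*-like locus, LOC113662830, was at 0.991 to 3.32 FPKM in Rec and 3.30 to 4.24 FPKM in Ctrl and averaged 101 FPKM in Str. For all 3 genes the Rec and Ctrl ranges overlapped. In the whole list of 33, FPKM did not overlap in 5 genes higher in Rec and in 1 lower, against 2.56% and 7.42% of all tested genes. The TSC22 domain family protein 3 locus LOC113636152, not called, was at 102.6, 89.5 and 95.3 FPKM in Rec. Its Ctrl values were 56.7, 68.7 and 75.3 FPKM, and Str averaged 246.8 FPKM. *sgk1* itself was not called (log2 fold change 1.58). It was at 55.55, 17.65 and 153 FPKM in Rec, against 30.9, 19.3 and 27.1 FPKM in Ctrl. The gene called lower was *angptl4*, a secreted inhibitor of lipoprotein lipase, at 34.0, 9.12 and 14.1 FPKM in Rec against 24.6, 101 and 66.2 FPKM in Ctrl, and 2 of 6 refits kept the call.

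Among 25 clock genes, 2 were called, both higher in Rec and both of the *nr1d* family of clock repressors, and the median was -0.06. LOC113649769, an *nr1d2*-like nuclear receptor, was at 12.2, 13.7 and 21.0 FPKM in Rec, against 3.85, 6.63 and 9.11 FPKM in Ctrl (log2 fold change 1.45 ± 0.29; DESeq2 adjusted p = 0.00329). The groups did not overlap, the call held without each library (1.28 to 1.72), and Str averaged 21.8 FPKM. *nr1d1* was called as well (log2 fold change 1.51), but its highest library, Rec-2, held 59.8% of the Rec sum and the groups overlapped. *nr1d1* held in 3 of 6 refits, and without Ctrl-1 or Ctrl-3 a single clock gene was called. A further 2 *nr1d*-like loci, LOC113641988 (log2 fold change -0.21) and LOC113654695 (-0.21), were not called. The sources do not state the clock time at which each fish was sampled, and its part in these values was not tested.

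Several enzymes were called without each single library. *gldc*, the decarboxylating subunit of the glycine cleavage system, was at 17.5, 45.4 and 25.2 FPKM in Rec, against 4.94, 3.83 and 5.93 FPKM in Ctrl, and averaged 27.9 FPKM in Str. *tecr*, which catalyses the last step of very-long-chain fatty acid elongation, was at 47.3, 57.2 and 59.7 FPKM in Rec, against 21.3, 19.3 and 22.3 FPKM in Ctrl. Its level in Str was lower, at 13.4 ± 1.796 FPKM (SD). All Rec fish lay above all Ctrl fish in both genes, with log2 fold changes of 2.79 ± 0.44 for *gldc* (DESeq2 adjusted p = 3.65e-07) and 1.54 ± 0.26 for *tecr* (DESeq2 adjusted p = 5.5e-06). LOC113662539, a probable *phospho1* phosphatase, had the smallest unadjusted p among the genes named here, 9.27e-05 in edgeR, with 6.92, 6.07 and 9.41 FPKM in Rec against 1.25, 1.45 and 2.23 FPKM in Ctrl. Without single libraries the log2 fold changes were 2.21 to 3.08 for *gldc*, 1.43 to 1.74 for *tecr* and 2.23 to 2.57 for the phosphatase.

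A group of antioxidant enzymes was higher in Rec than in Ctrl, and the Str mean lay below the Ctrl mean in those named here. Of 50 tested genes, 10 were called higher (20%, against 2.49% of all genes) and 0 lower. The median log2 fold change was 0.55, between 0.38 (without Rec-3) and 0.84 (without Rec-1). Without Ctrl-1 16 were called higher. *prdx3*, the mitochondrial peroxidase that removes hydrogen peroxide, was at 106, 168 and 178 FPKM in Rec, against 63.8, 49.01 and 44.8 FPKM in Ctrl, with a Str mean of 31.1 FPKM. *sod1*, the cytosolic superoxide dismutase, was at 153, 230 and 269 FPKM in Rec, against 115.5, 74.7 and 89.1 FPKM in Ctrl, with a Str mean of 70.03 FPKM. *gstp1*, which conjugates glutathione to electrophiles, was at 193, 400 and 292.5 FPKM in Rec, against 126, 116 and 89.7 FPKM in Ctrl, with a Str mean of 27.3 FPKM. In these 3 genes Rec-1 was the lowest Rec library and still above every Ctrl library. The log2 fold changes were 1.66 ± 0.32, 1.35 ± 0.34 and 1.58 ± 0.40 in the order given (DESeq2 adjusted p = 0.000728, 0.0275 and 0.0213), and each call held without each library. *gstz1* and the glutathione S-transferase 3 locus LOC113655226 were also called in all 6 refits, whereas *nqo1* owed its call largely to Rec-3, with 18.9, 21.5 and 111 FPKM in Rec against 21.1, 11.8 and 11.7 FPKM in Ctrl.

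**Figure D2:**
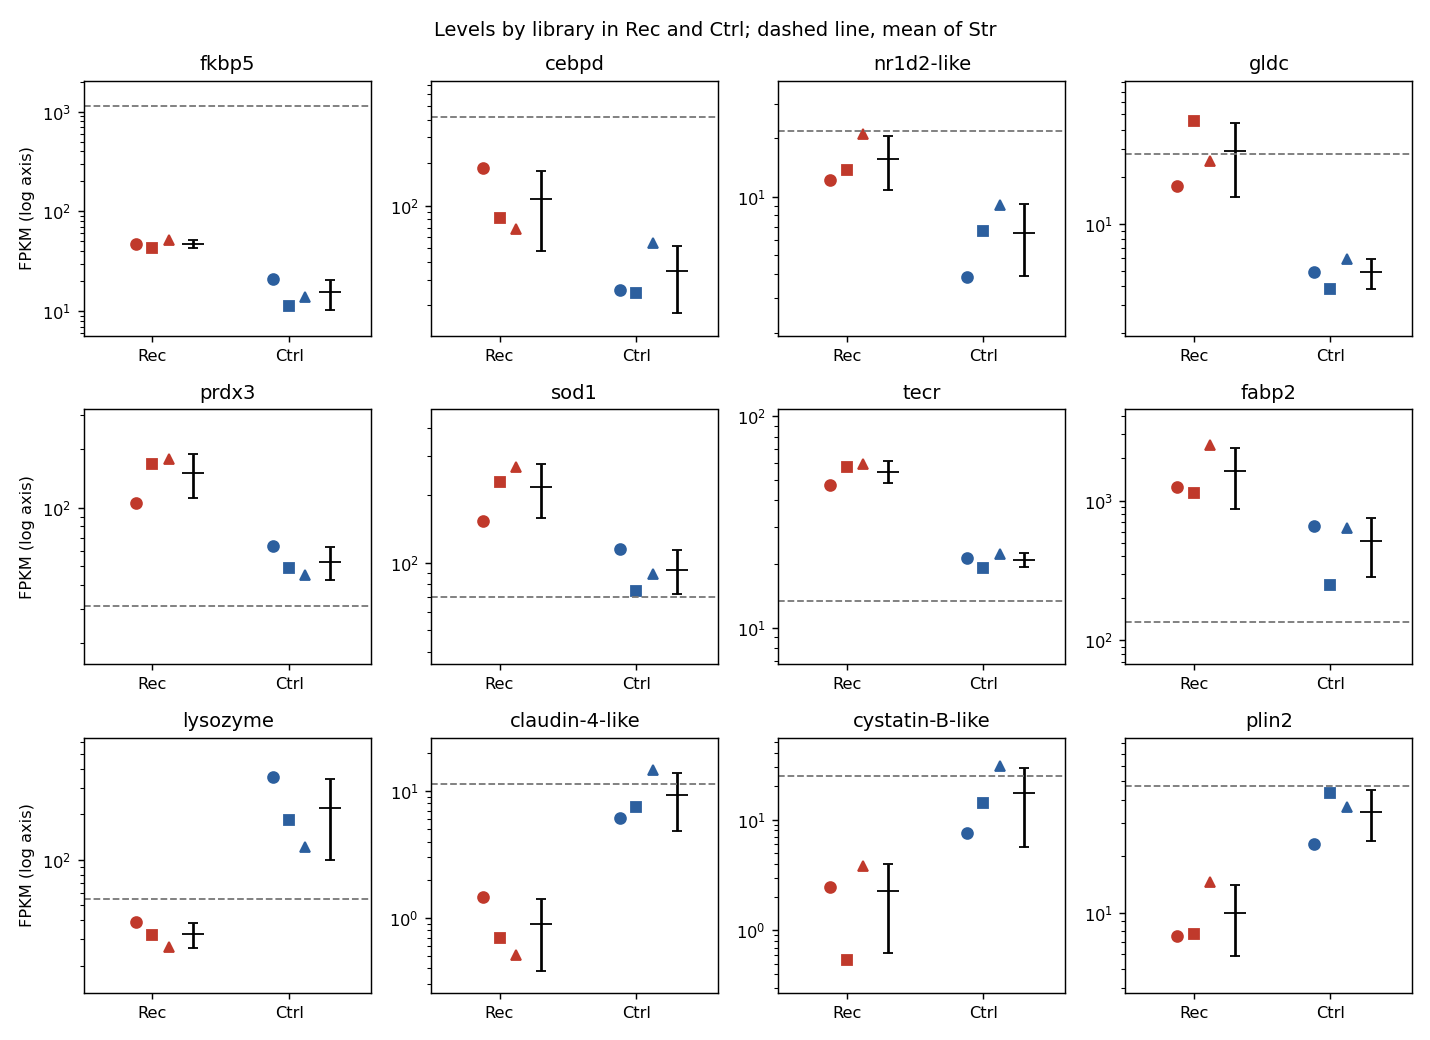
FPKM (y axis, log scale) of 12 genes that were called without each single library. Red symbols are the Rec fish and blue symbols the Ctrl fish, with circle, square and triangle for replicate 1, 2 and 3, and black bars are mean ± SD. The dashed line is the mean of Str, at 1125 FPKM for *fkbp5*. The Rec and Ctrl symbols do not overlap in any panel.

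Many of the largest rises were carried by Rec-2. The naming rule for the 12 largest rises took only genes whose groups did not overlap. In 8 of them Rec-2 was the highest Rec library, in 2 it was Rec-3 and in 2 Rec-1. A natterin-3-like gene, LOC113637596, related to fish toxin and immune proteins, was at 12.3, 778 and 13.2 FPKM in Rec, against 0.382, 0.703 and 8.77 FPKM in Ctrl. Without Rec-2 its log2 fold change was 2.19, against 6.81 with it. LOC113652857, an apolipoprotein A-I-2-like gene, was at 2.68, 84.1 and 2.76 FPKM in Rec, against 0.0413, 0.131 and 0.0423 FPKM in Ctrl, where it had 12 counts or fewer in each library. With a Str mean of 0.0189 FPKM, it passed the FPKM filter through its Rec libraries alone, so its lack of overlap followed from the filter. Another entry, LOC113662902, whose product names both a platelet-activating factor acetylhydrolase subunit and apolipoprotein A-I, was at 6.93, 187 and 4.60 FPKM in Rec, against 0.214, 0.630 and 0.740 FPKM in Ctrl, so its identity is ambiguous.

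**Figure D3:**
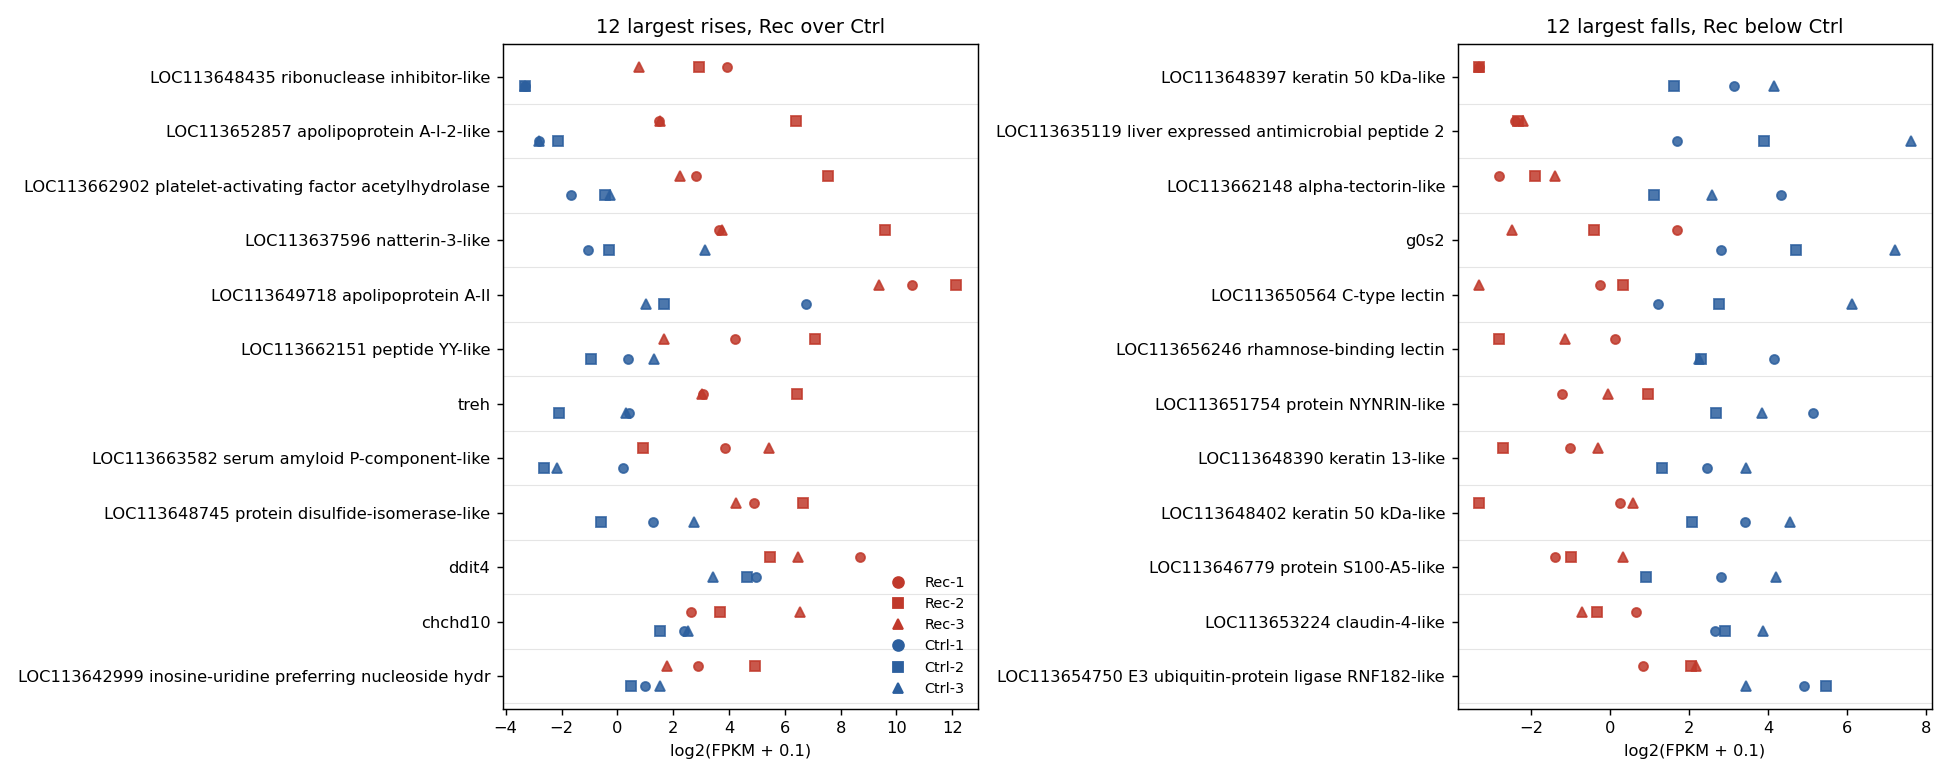
The 12 largest rises (left) and 12 largest falls (right) of Rec vs. Ctrl, with log2(FPKM + 0.1) on the x axis and a gene in each row. Red symbols above each row are Rec libraries and blue symbols below it Ctrl libraries, with circle, square and triangle for replicate 1, 2 and 3. Rec-2 (red square) is farthest to the right in 8 of the 12 rises, and Ctrl-3 (blue triangle) in 8 of the 12 falls.

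Apolipoprotein A-II (LOC113649718), a structural protein of high-density lipoproteins, had the highest level among these genes. It was at 1490, 4524 and 668.5 FPKM in Rec, against 108, 3.05 and 1.96 FPKM in Ctrl, and averaged 0.154 FPKM in Str. All Rec fish were high, and the log2 fold change of 5.93 ± 1.95 lay between 4.71 and 10.24 without single libraries. A peptide YY-like hormone gene, LOC113662151, which enteroendocrine cells release after feeding, was at 18.5, 134 and 3.08 FPKM in Rec, against 1.21, 0.424 and 2.36 FPKM in Ctrl. The brush border enzyme trehalase (*treh*) was at 8.22, 86.1 and 8.05 FPKM in Rec, against 1.23, 0.137 and 1.14 FPKM in Ctrl. For trehalase, Rec-1 and Rec-3 were alike and both above every Ctrl fish, so the call held without Rec-2 at a log2 fold change of 3.31.

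Rec-1 or Rec-3 was highest in *ddit4*, given above, and in the next 3 genes. LOC113648435, a ribonuclease inhibitor-like gene, had 15.1, 7.43 and 1.59 FPKM in Rec and no count in any Ctrl or Str library. It passed the FPKM filter through its Rec libraries alone, so its lack of overlap followed from the filter. Against a floor of 12 counts per library its mean level in Rec was at least 33.2-fold higher. A serum amyloid P-component-like gene, LOC113663582, of the pentraxin family of acute-phase proteins, was at 14.4, 1.801 and 43.5 FPKM in Rec, against 1.05, 0.0634 and 0.123 FPKM in Ctrl (DESeq2 adjusted p = 0.000355). *chchd10*, a mitochondrial intermembrane space protein, was at 6.05, 12.7 and 93.4 FPKM in Rec, against 5.16, 2.78 and 5.69 FPKM in Ctrl, and its log2 fold change was 1.30 without Rec-3 and 3.07 with it. The remaining 2 rises, again with Rec-2 highest, a protein disulfide-isomerase-like gene (LOC113648745) and a nucleoside hydrolase-like gene (LOC113642999), had log2 fold changes of 4.26 and 3.06 and were each called in 5 of 6 refits.

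Keratin, lectin and antimicrobial peptide genes made up 6 of the 12 largest falls. Liver expressed antimicrobial peptide 2 (LOC113635119), a cationic defence peptide that in mammals also blocks the ghrelin receptor, was at 0.0873, 0.0975 and 0.116 FPKM in Rec, against 3.15, 14.9 and 197 FPKM in Ctrl. The Rec fish had 12 counts or fewer, and the Ctrl fish differed widely, with 91.6% of their sum in Ctrl-3. DESeq2 gave an adjusted p of 9.62e-17, the smallest among the genes named here, and Str averaged 21.4 FPKM. That fit took the deposited counts, in which a read pair usually counts more than once, and was not repeated on read pairs. The size of this p-value is therefore not read as strength of evidence, and edgeR gave no gene an adjusted p below 0.348. The naming rule for the 12 largest falls also took only genes whose groups did not overlap, so all Rec fish lay below every Ctrl fish. They lay below the Str mean too, and the call held without each library. *g0s2*, an inhibitor of the lipase ATGL, was at 3.15, 0.648 and 0.0794 FPKM in Rec, against 6.93, 26.1 and 150 FPKM in Ctrl, with a Str mean of 57.9 FPKM. Its log2 fold change of -5.28 ± 1.34 was -3.46 without Ctrl-3, and the call held in all 6 refits (DESeq2 adjusted p = 0.000257).

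A keratin gene, LOC113648397, had no count in any Rec library and 8.75, 2.96 and 17.7 FPKM in Ctrl, so that its level in Rec was at least 75.7-fold lower against the floor of 12 counts. Type I keratins form the intermediate filaments of epithelial cells. Its annotated relatives LOC113648390, LOC113648402 and LOC113648410 were also called lower, with log2 fold changes of -3.90, -3.86 and -3.52. For each of these 4 genes Ctrl-3 was the highest Ctrl fish, holding 58.1% to 80.2% of the Ctrl sum. The 4 genes have similar product names and close locus numbers, and whether reads were split between near-identical copies was not tested. Str averaged 1.34 to 2.58 FPKM for these 4 genes, between the Rec and the Ctrl means. No other of the 19 tested keratin and intermediate filament genes was called, and their median was -0.04. Without Ctrl-3 2 of the list were called lower. In the GO list of intermediate filaments 6 of 30 genes were called lower and 0 higher, and 3 lower without Ctrl-3. That list was chosen in the study on these samples and is not independent evidence.

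Among the other large falls, an alpha-tectorin-like gene (LOC113662148) was at 0.0417, 0.167 and 0.278 FPKM in Rec, against 19.96, 2.04 and 5.84 FPKM in Ctrl (DESeq2 adjusted p = 0.000355). A rhamnose-binding lectin (LOC113656246), of a fish lectin family that binds bacterial sugars, was at 0.992, 0.0419 and 0.349 FPKM in Rec, against 17.8, 4.86 and 4.62 FPKM in Ctrl. Both were called without each library. A C-type lectin (LOC113650564) and an S100-A5-like gene (LOC113646779) depended more on Ctrl-3, which held 88.7% and 67.6% of the Ctrl sum, and were called in 4 and 3 of 6 refits. An NYNRIN-like gene (LOC113651754) and an RNF182-like ubiquitin ligase (LOC113654750) were called in all 6, with log2 fold changes of -4.06 and -2.91. The abundant lactose-binding lectin LOC113650563 was at 4450, 1698 and 2270 FPKM in Rec, against 18990, 12330 and 22860 FPKM in Ctrl, and averaged 1015 FPKM in Str. No Rec fish reached the lowest Ctrl fish, and the call held in 4 of 6 refits (log2 fold change -2.56 ± 0.89).

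Of 25 tested genes of fat absorption and lipoproteins, 12 were called higher in Rec than in Ctrl (48%, against 2.49% of all genes) and 1 lower, and the median of 1.12 lay between 0.98 and 1.37 without single libraries. The number called higher was 6 without Ctrl-2, 7 without Rec-2 and 13 without Rec-1. *fabp2*, the intestinal fatty acid-binding protein, was at 1250, 1133 and 2491 FPKM in Rec, against 662, 250 and 633 FPKM in Ctrl (log2 fold change 1.74 ± 0.51; DESeq2 adjusted p = 0.0419). The groups did not overlap and the call held in all 6 refits. Str averaged 134 FPKM, below Ctrl. *fabp1*, the liver-type binding protein, was at 1239, 2639 and 3132 FPKM in Rec, against 1204, 448 and 538 FPKM in Ctrl, and here Rec-1 was barely above Ctrl-1. *fabp2* and *plin2* were picked by the study on these samples, so their direction is not independent evidence.

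*dgat2*, which makes triglyceride from diacylglycerol, was at 29.0, 54.9 and 11.3 FPKM in Rec, against 2.54, 3.57 and 12.1 FPKM in Ctrl. Rec-3 lay below Ctrl-3, so the groups overlapped, yet the call held in all 6 refits with log2 fold changes of 1.93 to 3.59. A merged apolipoprotein A-I locus (LOC113644437 with 2 other loci) was at 345.5, 525 and 379.5 FPKM in Rec, against 178, 167 and 248.5 FPKM in Ctrl. *apoc1*, apolipoprotein C-I, was at 3580, 17710 and 372 FPKM in Rec, against 1361, 260 and 740 FPKM in Ctrl, with Rec-3 inside the Ctrl range. *mttp*, which loads lipid onto apolipoprotein B, was at 17.7, 48.1 and 94.3 FPKM in Rec, against 12.9, 19.3 and 29.8 FPKM in Ctrl. The single fall was *plin2*, the coat protein of lipid droplets, at 7.495, 7.73 and 14.6 FPKM in Rec, against 23.1, 43.4 and 36.6 FPKM in Ctrl (log2 fold change -1.63 ± 0.44, DESeq2 adjusted p = 0.0555). It was called in all 6 refits, and Str averaged 47.2 FPKM. *cd36* (log2 fold change 0.31), *slc27a4* (0.16 and 0.91 at its 2 loci) and the apolipoprotein B loci LOC113659499 (-0.25) and LOC113655586 (1.12) were not called. LOC113655586 was at 395, 426 and 106 FPKM in Rec, against 142.5, 143 and 215 FPKM in Ctrl.

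In such bulk tissue, fewer cells of a type and less RNA per cell cannot be told apart, and this holds for every marker-like gene here. The enterocyte markers gave 1 call higher (*fabp2*) among 9 tested genes, with a median of 0.37, and 2 were called higher without Rec-3 or Ctrl-1. The summed level of all 11 entries of the list, tested or not, was 9069 to 11580 FPKM in Rec and 4431 to 8032 FPKM in Ctrl, without overlap. Much of that sum came from *fabp2* and the *fabp2*-like LOC113649980, which are also genes of the lipid list. LOC113649980 was at 3373, 5459 and 5666 FPKM in Rec, against 3658, 1108 and 2741 FPKM in Ctrl. The abundant aminopeptidase N-like LOC113651933 overlapped, at 3030, 2322 and 1819 FPKM in Rec against 2290, 1844 and 2032 FPKM in Ctrl. *cdh17* (log2 fold change 0.56), *vil1* (0.34) and the *cdx1*-like loci LOC113650178 (-0.08) and LOC113654968 (-0.01), transcription factors of intestinal identity, were not called. The part of enterocyte content in the lipid genes was not tested.

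Cholesterol synthesis had the highest median of the lists and rested on a single fish. Of 19 tested genes 14 were called higher (73.7%) and 0 lower, with a median log2 fold change of 2.28. Without Rec-3 the median was 0.18 and 2 genes were called, whereas without any other of the 6 libraries the median stayed between 2.12 and 2.82 and 5 (without Ctrl-2), 8 (without Ctrl-1) or up to 16 genes were called. The median position of the 19 genes relative to the Ctrl mean, in log2 CPM, was 0.29 in Rec-1, 0.24 in Rec-2 and 3.57 in Rec-3. Steroid biosynthesis is a pathway the study picked on these samples, so its direction here is not independent evidence.

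Rec-3 stood apart in genes along the pathway. *fdps*, which makes farnesyl pyrophosphate, was at 4.28, 4.62 and 253 FPKM in Rec, against 2.51, 4.94 and 7.06 FPKM in Ctrl. *hmgcs1*, the enzyme ahead of HMG-CoA reductase, was at 2.94, 1.77 and 182 FPKM in Rec, against 3.29, 5.40 and 5.56 FPKM in Ctrl. *msmo1*, a sterol demethylating oxidase, was at 1.81, 1.96 and 155 FPKM in Rec, against 2.31, 2.34 and 4.30 FPKM in Ctrl. In all 3 genes Rec-1 and Rec-2 lay within or below the Ctrl range, while Rec-3 was far above it. Ctrl and Str were low throughout. The summed level of all 23 entries of the list, tested or not, was 124 to 185 FPKM in Ctrl and 105 to 118 FPKM in Str. The sum in Rec was 213 and 191 FPKM in Rec-1 and Rec-2, and 2058 FPKM in Rec-3.

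**Figure D4:**
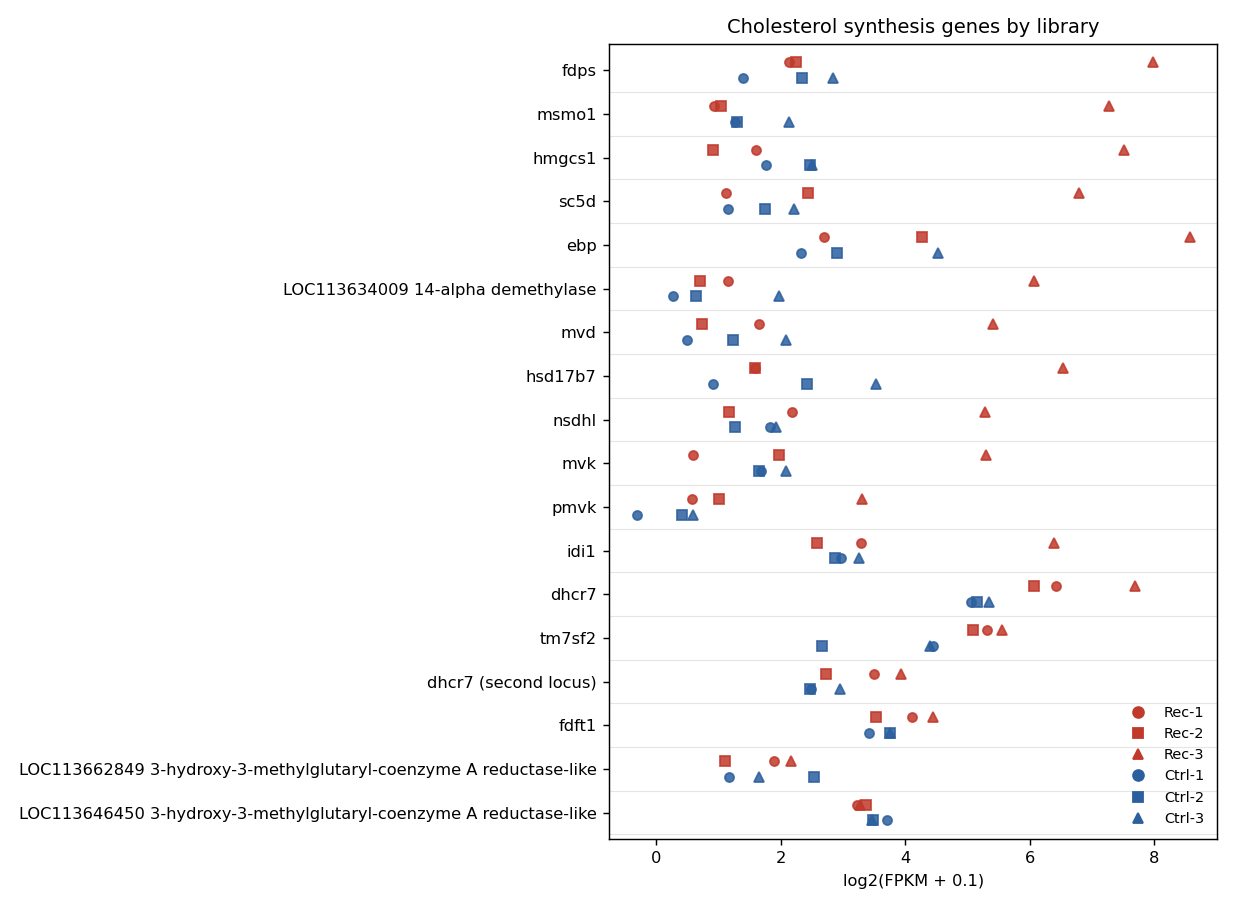
log2(FPKM + 0.1) (x axis) of 18 of the 19 tested cholesterol synthesis genes, ordered by log2 fold change of Rec over Ctrl. Red symbols above each row are Rec libraries and blue symbols below it Ctrl libraries, with circle, square and triangle for replicate 1, 2 and 3. Rec-3 (red triangle) is over 3 times the next library's FPKM in the upper 12 rows, at 253 FPKM for *fdps*, while Rec-1 and Rec-2 lie near the Ctrl symbols.

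A pair of sterol genes stayed called without Rec-3. *dhcr7*, which makes cholesterol from its last precursor, was at 85.3, 66.7 and 205 FPKM in Rec, against 33.2, 35.6 and 40.7 FPKM in Ctrl (log2 fold change 1.81 ± 0.37; DESeq2 adjusted p = 0.00111). Every Rec fish lay above every Ctrl fish, the log2 fold change was 1.29 without Rec-3, and Str averaged 20.8 FPKM, below Ctrl. A second *dhcr7* entry was not called (log2 fold change 0.95) and its groups overlapped. It was at 11.2, 6.47 and 15.2 FPKM in Rec, against 5.47, 5.45 and 7.62 FPKM in Ctrl. *tm7sf2*, a sterol reductase, was at 39.5, 33.8 and 47.0 FPKM in Rec, against 21.6, 6.21 and 21.0 FPKM in Ctrl, and was called in 5 of 6 refits. Among 18 genes of sterol sensing and export, 2 were called higher and 0 lower, with a median of 0.38 that was 0.13 without Rec-2 and 0.05 without Rec-3, and 1 was called higher without Ctrl-2 or Ctrl-3. *insig1*, which holds back the activation of sterol synthesis, was at 23.5, 36.2 and 150 FPKM in Rec, against 5.31, 12.7 and 16.2 FPKM in Ctrl. Its log2 fold change was 1.71 without Rec-3, its groups did not overlap, and Str averaged 56.8 FPKM, so it lay above Ctrl there too. The other call was a sterol O-acyltransferase 2-like gene (LOC113643245; log2 fold change 1.33 ± 0.47), which esterifies absorbed cholesterol, and it was kept in 4 of 6 refits.

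Fatty acid synthesis followed Rec-3 as well. Of 18 tested genes 5 were called higher and 0 lower, with a median of 0.59 that was 0.04 without Rec-3, and the number called was 3 without Ctrl-1 and 2 without Rec-3, Ctrl-2 or Ctrl-3. *fads2*, the Delta6 desaturase of polyunsaturated fatty acid synthesis, was at 2.43, 24.5 and 155 FPKM in Rec, against 2.65, 1.67 and 2.15 FPKM in Ctrl. *elovl2*, an elongase of the same pathway, was at 1.53, 13.6 and 132 FPKM in Rec, against 0.604, 0.411 and 4.37 FPKM in Ctrl. In both genes Rec-3 was highest, Rec-2 intermediate and Rec-1 among the Ctrl fish, and the log2 fold changes without Rec-3 were 2.94 and 2.49. *fads2* had a DESeq2 adjusted p of 6.3e-05 and *elovl2* one of 0.0546. A stearoyl-CoA desaturase 1 locus of the PPAR list (LOC113636202) was at 0.821, 3.87 and 111 FPKM in Rec, against 1.48, 0.590 and 0.612 FPKM in Ctrl. The acyl-CoA desaturase LOC113639949 leaned lower, at 4.46, 1.58 and 2.30 FPKM in Rec against 3.55, 6.43 and 8.28 FPKM in Ctrl. It was not called with all libraries (log2 fold change -0.95). In the fatty acid synthesis list 1 gene was called lower without Rec-1 or without Ctrl-1.

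Fatty acid oxidation differed less. *acox3* and *hsd17b10* were among 3 genes called higher of 28 tested, with none lower and a median of 0.47. The number was 5 without Rec-1 and 1 without Rec-2, Ctrl-2 or Ctrl-3. The peroxisomal acyl-CoA oxidase *acox3* was at 9.26, 15.8 and 29.3 FPKM in Rec, against 8.26, 9.67 and 9.34 FPKM in Ctrl. PPAR signaling was chosen in the study on these samples. In the KEGG list of PPAR signaling 14 of 119 genes were called higher (11.8%) and 3 lower (2.52%), with a median of 0.22. Without Rec-1 7 were called lower, and without Ctrl-1 5. Besides the genes above, these included *dbi*, the acyl-CoA-binding protein, at 85.6, 588 and 1228 FPKM in Rec against 107, 75.5 and 111 FPKM in Ctrl. Of 6 bile acid genes (median 0.68, or 0.19 without Rec-3) 0 were called, and 1 had an unadjusted p below 0.05, the bile acid receptor *nr1h4* (log2 fold change 0.68). The ileal bile acid carrier *fabp6* was at 2515, 511.5 and 12070 FPKM in Rec, against 2369, 127 and 827 FPKM in Ctrl, a spread within each group as wide as that between them.

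Genes of DNA replication and mitosis leaned higher in Rec, with a median of -1.05 for Str over Ctrl. Of 65 tested genes, 19 were called higher (29.2%) and 0 lower, and the median of 1.23 lay between 0.78 (without Rec-2) and 1.58 (without Rec-1). The number of calls moved far more, with 4 without Rec-2, 10 without Ctrl-1 and 31 without Rec-1. Rec-1 was near Ctrl, with a median position of 0.24 relative to the Ctrl mean in log2 CPM, against 1.54 in Rec-2 and 1.04 in Rec-3. *cdk1*, the kinase that starts mitosis, was at 6.61, 22.3 and 10.5 FPKM in Rec, against 2.14, 3.70 and 6.20 FPKM in Ctrl, with a Str mean of 0.797 FPKM. *kif20a*, a kinesin of cytokinesis, was at 2.48, 5.76 and 1.65 FPKM in Rec, against 0.468, 0.686 and 0.518 FPKM in Ctrl (log2 fold change 2.82 ± 0.63; DESeq2 adjusted p = 0.00423). Groups did not overlap in these genes or in *kif2c* (log2 fold change 2.49), and all 3 were called in every refit. *kif20a* passed the FPKM filter through its Rec libraries alone, so its lack of overlap followed from the filter. The same held for *bub1* and the aurora kinase B-like LOC113643814 among the 19 calls, and for *ska3* below. *top2a*, *cdc20*, *rrm2* and *mad2l1* were called with all libraries and kept in 5, 3, 3 and 4 of 6 refits. Of 14 genes in the GO kinetochore list *ska1*, *ska3* and *ndc80* were called higher and none lower. The kinetochore term was chosen in the study on these samples.

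In respiratory chain genes Rec-1 was again the lowest Rec fish, and Rec-3 the highest. Of 95 genes 18 were called higher (18.9%) and 0 lower, 90 had a positive log2 fold change and the median was 0.82. Their median position relative to the Ctrl mean was -0.27 in Rec-1, 0.88 in Rec-2 and 1.43 in Rec-3, so Rec-1 did not share the difference. The number of calls was 59 without Rec-1, 29 without Ctrl-1, 10 without Rec-2, 6 without Ctrl-3, 4 without Ctrl-2 and 3 without Rec-3. An ATP synthase subunit C gene (LOC113638146) was at 45.7, 120 and 198 FPKM in Rec, against 53.4, 34.4 and 40.7 FPKM in Ctrl. The complex I subunit *ndufa12* was at 41.5, 64.1 and 125 FPKM in Rec, against 39.0, 29.8 and 34.8 FPKM in Ctrl. Proteasome subunits gave 0 calls among 50 genes with 3 at an unadjusted p below 0.05, although 49 had positive log2 fold changes (median 0.59), and the median was 0.07 without Rec-3. Without Rec-1 19 proteasome genes were called higher. Cytosolic ribosomal protein genes gave 0 calls among 82, with 0 at an unadjusted p below 0.05 and a median of -0.14.

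**Figure D5:**
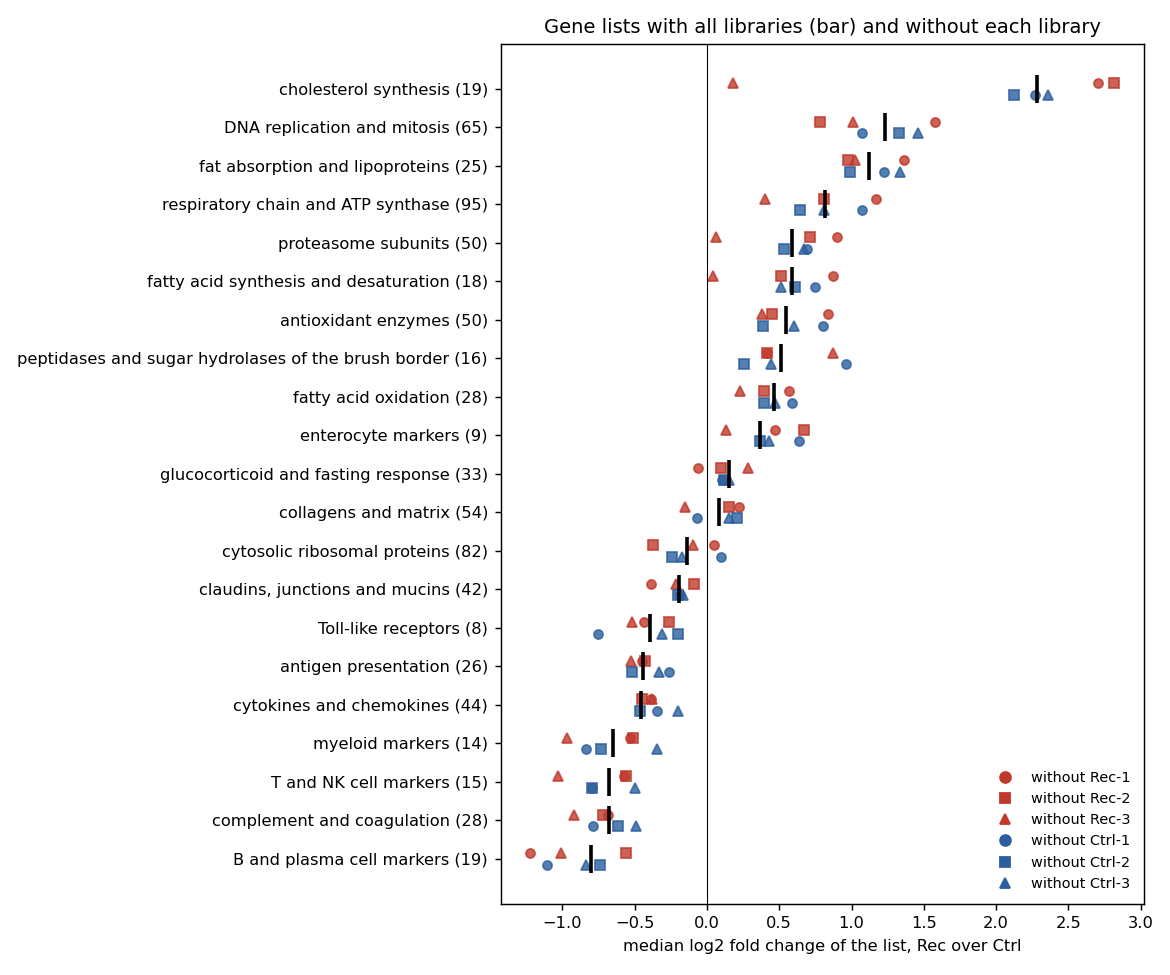
Median log2 fold change of Rec over Ctrl (x axis) for 21 gene lists, with the number of tested genes in brackets. Black bars are the fit with all libraries, red symbols the fits without a Rec library and blue symbols those without a Ctrl library, with circle, square and triangle for replicate 1, 2 and 3. The cholesterol synthesis median is at 2.28 with all libraries and at 0.18 without Rec-3 (red triangle), while that of fat absorption stays between 0.98 and 1.37.

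Brush border enzymes and nutrient carriers differed in a few members. Of 16 peptidases and sugar hydrolases 4 were called higher and 0 lower, with a median of 0.51, and 1 was called without Rec-2 or without Ctrl-2. Maltase-glucoamylase (LOC113659427), which ends starch digestion, was at 512, 539 and 464 FPKM in Rec, against 293.5, 114 and 242 FPKM in Ctrl, a non-overlapping difference that 3 of 6 refits kept. A gene annotated as a member of the ectonucleotide pyrophosphatase/phosphodiesterase family (LOC113650540) was at 2.22, 155.5 and 6.20 FPKM in Rec, against 3.12, 0.109 and 0.316 FPKM in Ctrl, and was carried by Rec-2. Both aminopeptidase N loci named as enterocyte markers (LOC113652607, log2 fold change -0.52, and LOC113651933, 0.37) were not called. Among 36 nutrient transporters 2 were called higher and 1 lower, and the number higher was 4 without Rec-1 or Rec-3 and 1 without Rec-2 or Ctrl-2, and the number lower was 0 without Ctrl-1. *slc5a1*, the sodium-glucose cotransporter, was at 191, 116.5 and 274 FPKM in Rec, against 72.8, 82.3 and 122 FPKM in Ctrl (DESeq2 adjusted p = 0.0396). *slc2a2*, the basolateral glucose exit carrier, was at 28.6, 79.2 and 20.4 FPKM in Rec, against 13.95, 10.6 and 22.8 FPKM in Ctrl, with Rec-3 inside the Ctrl range. *slc1a1*, a glutamate transporter, was at 22.4, 2.29 and 17.4 FPKM in Rec, against 70.03, 67.4 and 38.8 FPKM in Ctrl, all Rec fish lower.

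Lymphocyte and phagocyte markers leaned lower in Rec. Of 19 B and plasma cell markers 8 were called lower (42.1%, against 1.52% of all genes) and 0 higher, with a median of -0.80 that lay between -1.23 and -0.56 without single libraries. Without Ctrl-2 2 were called lower, without Rec-2 4, and without Rec-3 or Ctrl-3 5. The summed level of all 42 entries of the list, tested or not, was 25.2 to 40.1 FPKM in Rec and 45.2 to 127 FPKM in Ctrl, without overlap. In Str it was 39.6 to 40.97 FPKM. Ctrl-1 was near Rec in this list: *cd79a*, part of the B-cell receptor, was at 3.28, 1.45 and 5.37 FPKM in Rec, against 2.76, 11.3 and 12.9 FPKM in Ctrl. *pou2af1*, a coactivator of immunoglobulin genes, was at 4.54, 1.40 and 1.58 FPKM in Rec, against 12.9, 9.78 and 7.29 FPKM in Ctrl. A merged immunoglobulin locus (LOC113662937 with 3 other loci), whose product names both light and heavy chains, was called in all 6 refits. It was at 1.93, 2.59 and 2.64 FPKM in Rec against 2.85, 10.9 and 9.12 FPKM in Ctrl.

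T and NK cell markers had negative log2 fold changes in all 15 tested genes, with 3 called lower, 0 higher and a median of -0.68. Without Ctrl-3 none was called and the median was -0.50, and without Rec-1 1 was called. A T-cell receptor beta locus (LOC113659468) was at 7.77, 10.4 and 11.7 FPKM in Rec, against 21.7, 16.1 and 33.1 FPKM in Ctrl, and averaged 2.53 FPKM in Str. Among 14 myeloid markers 2 were called lower and 0 higher, with a median of -0.65. Without Ctrl-3 the myeloid median was -0.35 and 1 was called. The steadier call was a lysozyme gene, LOC113647750, whose product cuts bacterial cell walls, at 38.6, 31.8 and 26.5 FPKM in Rec, against 354.5, 184 and 122 FPKM in Ctrl (log2 fold change -2.68 ± 0.50; DESeq2 adjusted p = 2.86e-05). It was called without each library (-1.90 to -2.99), and Str averaged 54.9 FPKM, so Rec lay below Str and Ctrl alike. *lyz*, a c-type lysozyme, was at 26.2, 14.6 and 30.3 FPKM in Rec, against 28.1, 54.2 and 61.0 FPKM in Ctrl and was not called. The lysozyme g-like gene LOC113647721 was at 800.7, 2084 and 519.6 FPKM in Rec, against 3800, 2121 and 1846 FPKM in Ctrl. Another lysozyme g-like gene, LOC113647773, leaned higher, at 18.4, 28.3 and 13.5 FPKM in Rec against 14.03, 16.5 and 15.65 FPKM in Ctrl. Neither g-like gene was called, and the groups overlapped in both.

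Toll-like receptors, which sense microbial products, gave no call. All 8 tested receptor genes had negative log2 fold changes, from -0.21 to -1.09, 0 were called, 0 had an unadjusted p below 0.05, and Rec and Ctrl overlapped in every case. Without Rec-3 2 were called lower, and without Rec-1 or Ctrl-1 1. LOC113656076, annotated as *tlr9* and picked by the study on these samples, was at 0.141, 0.158 and 4.49 FPKM in Rec, against 0.457, 4.46 and 4.65 FPKM in Ctrl, so Rec-3 and 2 Ctrl fish were high and the other 3 fish low. In the KEGG list of Toll-like receptor signaling 2 of 144 genes were called higher (1.39%) and 5 lower (3.47%), against 2.49% and 1.52% of all genes. The number lower was 10 without Rec-3 and 3 without Ctrl-2 or Ctrl-3. The number higher was 4 without Ctrl-2, 1 without Ctrl-3 and 0 without Ctrl-1. The study chose this pathway on these samples as well. An AP-1 gene (LOC113662252), a nuclear target of that signaling, was at 6.53, 2.91 and 2.20 FPKM in Rec, against 20.01, 10.5 and 12.2 FPKM in Ctrl, and was called in all 6 refits. *traf3* (log2 fold change -1.04) and *tab2* (1.09), adaptors of the pathway, were called in opposite directions in 3 and 4 of 6 refits. *traf3* lost its call with rows that carry no gene name left out.

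Cytokines and chemokines gave 1 call in each direction among 44 genes (median -0.46), with 0 lower without Rec-2 or Ctrl-3 and up to 4 lower without Rec-3. The lower call was a C-C motif chemokine 3-like gene, LOC113651483, at 5.41, 2.46 and 5.90 FPKM in Rec against 9.11, 9.82 and 15.5 FPKM in Ctrl. The higher call, LOC113663546, rested on 49 counts in Rec-1 with every other library of both groups at 0, and is not read as a difference. Of 64 interferon-induced genes 1 was called higher (1.56%) and 2 lower (3.12%), near the 2.49% and 1.52% of all genes, with a median of 0.19. In this list 4 were called higher without Ctrl-1 or Ctrl-2, while 1 was called lower without Rec-2, Rec-3, Ctrl-2 and Ctrl-3 in turn. The median was -0.05 without Rec-2. *ifi27*, one of several interferon-induced mitochondrial proteins, was at 154, 146 and 61.6 FPKM in Rec, against 31.3, 63.0 and 34.0 FPKM in Ctrl and was called in every refit, although Rec-3 lay just below Ctrl-2. An interferon-induced protein 44-like gene (LOC113659028) was at 2.32, 0.274 and 1.75 FPKM in Rec, against 6.14, 12.4 and 5.47 FPKM in Ctrl and was also called in every refit. Among 26 antigen presentation genes a class II antigen (LOC113640460) was the only call, at 42.2, 14.9 and 15.6 FPKM in Rec against 38.6, 57.5 and 147.5 FPKM in Ctrl, and 3 of 6 refits kept it. In this list 0 were called lower without Ctrl-3, and 2 without Rec-3 or Ctrl-1. Of 17 mucosal lectin genes 2 were called lower and 0 higher, with 0 lower without Rec-2 or Rec-3 and 1 without Ctrl-3.

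A few barrier and protease inhibitor genes were called lower. Of 42 claudin, junction and mucin genes 4 were called lower (9.52%, against 1.52% of all genes) and 0 higher (median -0.19), and 2 lower without Rec-2. The claudin-4-like gene LOC113653224, a sealing protein of tight junctions in mammals, was at 1.48, 0.690 and 0.513 FPKM in Rec, against 6.16, 7.42 and 14.6 FPKM in Ctrl (log2 fold change -3.18 ± 0.59; DESeq2 adjusted p = 0.000102). It was called in all 6 refits (-2.79 to -3.70), and Str averaged 11.4 FPKM, near Ctrl. Its paralog LOC113643632 was at 1.76, 0.972 and 1.00 FPKM in Rec, against 3.95, 5.91 and 4.62 FPKM in Ctrl. Of 51 peptidase inhibitors of a GO list 5 were called lower and 1 higher (median -0.25), and 3 lower without Ctrl-3. That list, too, was chosen in the study on these samples. The cystatin-B-like gene LOC113661071, an inhibitor of lysosomal cysteine proteases, was at 2.47, 0.545 and 3.85 FPKM in Rec, against 7.65, 14.2 and 30.4 FPKM in Ctrl (DESeq2 adjusted p = 0.0056), and averaged 24.8 FPKM in Str. LOC113661088, a second cystatin-B-like gene, was at 1.10, 0.696 and 0.916 FPKM in Rec, against 2.88, 2.60 and 5.18 FPKM in Ctrl.

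Complement and coagulation genes gave 3 calls lower (10.7%, against 1.52% of all genes) and 1 higher (3.57%, against 2.49%) among 28, with a median of -0.68. The number lower was 8 without Rec-1, 5 without Ctrl-1 and 1 without Rec-2, and the number higher was 2 without Rec-3 and 0 without Rec-2, Ctrl-2 or Ctrl-3. Coagulation factor X-like LOC113648978 was at 10.3, 8.25 and 5.07 FPKM in Rec, against 17.1, 25.4 and 23.7 FPKM in Ctrl, and was called in all 6 refits. Complement factor B (LOC113643603), of the alternative pathway, was at 4.92, 2.31 and 7.19 FPKM in Rec, against 33.7, 5.93 and 19.8 FPKM in Ctrl, with overlap at Ctrl-2. In the GO list of blood microparticle 5 of 42 genes were called higher and 7 lower. The number higher was 2 without Rec-2 or Ctrl-2 and 3 without Ctrl-1, and the number lower was 3 without Ctrl-2 and 4 without Rec-1, Rec-2 or Ctrl-3. The higher ones were the pentraxin given above, a complement factor H-like gene (LOC113646188) and 3 apolipoprotein loci. The lower ones included the T-cell receptor beta locus, an immunoglobulin delta locus (LOC113637527) and 3 signal-regulatory protein beta-1-like genes. The term was chosen in the study on these samples.

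A pair of further falls stood out for steadiness. LOC113639955, a probable carboxypeptidase X1, was at 1.69, 1.04 and 1.29 FPKM in Rec, against 5.29, 6.07 and 5.18 FPKM in Ctrl (log2 fold change -1.90 ± 0.31; DESeq2 adjusted p = 5.6e-05), with no overlap and a Str mean of 7.75 FPKM. LOC113646449, annotated as betaine-homocysteine S-methyltransferase 1, which remakes methionine, was at 0.216, 0.0783 and 0.0649 FPKM in Rec, against 0.731, 1.22 and 1.76 FPKM in Ctrl, and averaged 9.74 FPKM in Str. Rec thus lay below Ctrl in a gene for which Str lay above it, with a log2 fold change of -3.14 ± 0.52 against Ctrl (DESeq2 adjusted p = 1.27e-05).

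Chaperone genes gave few calls, and many stood high in Rec-3 alone. Of 53 heat shock and unfolded protein response genes 1 was called higher (1.89%) and 2 lower (3.77%), against 2.49% and 1.52% of all genes. Their median was 0.29, and -0.26 without Rec-3. In 17 of the 53 Rec-3 was over 2 times the highest of the other 5 Rec and Ctrl libraries. *hsp90b1*, a chaperone of the endoplasmic reticulum, was at 20.9, 16.5 and 320.5 FPKM in Rec, against 24.5, 62.3 and 85.5 FPKM in Ctrl. *hspe1*, the mitochondrial co-chaperonin, was at 9.31, 27.6 and 301 FPKM in Rec, against 19.9, 16.1 and 40.9 FPKM in Ctrl. Neither was called, and Rec-1 and Rec-2 lay within or below the Ctrl range in both. The gene called higher was *sdf2l1*, of the endoplasmic reticulum, at 4.60, 15.9 and 94.5 FPKM in Rec, against 5.95, 8.42 and 13.7 FPKM in Ctrl. *hsp90b1* and *hspe1* were chosen after their values were seen. The number called higher was 8 without Rec-1, 3 without Rec-2 and 0 without Rec-3, Ctrl-1 or Ctrl-2, and the number lower was 6 without Rec-3 and 1 without Ctrl-1. The immediate-early factor *atf3* was at 5.23, 5.98 and 4.80 FPKM in Rec, against 121, 28.5 and 4.78 FPKM in Ctrl, so it was untreated fish Ctrl-1 and Ctrl-2 that stood out, and Ctrl-3 was level with Rec. A heat shock protein 30-like gene (LOC113635889) was at 0, 0 and 0.101 FPKM in Rec and 1.93, 0.325 and 0.648 FPKM in Ctrl. Of 54 collagen and matrix genes (median 0.08), *col25a1* was the only call, higher in Rec at 5.58, 10.2 and 2.00 FPKM against 1.93, 0.523 and 0.924 FPKM in Ctrl. Cytochrome P450, glucuronosyltransferase and sulfotransferase genes gave 2 calls higher (6.9%, against 2.49% of all genes) and 1 lower (3.45%, against 1.52%) among 29. The number higher was 4 without Ctrl-1 and 1 without Rec-1 or Ctrl-3. The calls were led by the sulfotransferase LOC113650629 at 42.4, 24.3 and 31.3 FPKM in Rec against 16.4, 19.01 and 15.5 FPKM in Ctrl.

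Markers of other cell types and neighbouring organs varied between single fish. Exocrine pancreas genes summed to 8.15 to 12.99 FPKM in Rec and to 2.49, 4.01 and 318 FPKM in Ctrl, and Ctrl-3 alone carried trypsin-2-like LOC113655609 at 44.2 FPKM, with 1.39 to 2.36 FPKM in Rec. Ctrl-3 was also the highest Ctrl fish for the antimicrobial peptide, *g0s2* and the keratins, and the part of pancreatic tissue in those falls was not tested. The pancreas sums cover 19 entries, of which 4 passed the FPKM filter. An entry high in Ctrl-3 alone could not pass it. Of the 4 tested pancreas genes 0 were called, with 0 at an unadjusted p below 0.05, and 1 was called lower without Ctrl-1 or Ctrl-2. The skeletal muscle list gave 1 call higher among 5, parvalbumin LOC113638038, whose product name is parvalbumin thymic cpv3. This parvalbumin was at 1.78, 1929 and 1.65 FPKM in Rec, against 11.3, 14.3 and 2.01 FPKM in Ctrl. Its log2 fold change was 6.44 with Rec-2 and -2.36 without it, so the direction itself rested on that fish. Other genes of the list did not follow it. Alpha skeletal muscle actin (LOC113655680; 0, 13.3 and 36.6 FPKM in Rec) was highest in Rec-3. So was fast troponin T (LOC113656941; 1.36, 2.34 and 10.4 FPKM in Rec). The *pvalb* loci had log2 fold changes of -0.35 and -0.20. No skeletal muscle gene was called without Rec-2 or without any one Ctrl fish.

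Liver markers gave 1 call, apolipoprotein A-II, among 6, with 2 called higher without Ctrl-1 and 1 lower without Rec-1. Of the fibrinogen genes, made by hepatocytes, *fga* was at 0.189 to 0.847 FPKM in Rec and 0.131 to 0.452 FPKM in Ctrl, and *fgb* at 0.0139 to 0.262 FPKM in Rec and 0 to 2.74 FPKM in Ctrl. *fgg* was at 14.3, 0.318 and 0.847 FPKM in Rec, against 1.83, 1.89 and 2.57 FPKM in Ctrl (log2 fold change 1.43, not called), with Rec-1 alone above Ctrl. Red cell genes gave 0 calls among 7 (0 at an unadjusted p below 0.05). Over all 10 entries the sums were 383, 80.1 and 1819 FPKM in Rec and 785, 270 and 1319 FPKM in Ctrl. Smooth muscle genes gave 1 call higher among 11, myosin-11 (LOC113649267) at 547.5, 504 and 340 FPKM in Rec against 209, 268 and 273 FPKM in Ctrl, kept in 1 of 6 refits. Enteroendocrine markers gave 2 calls higher (peptide YY-like and proglucagon LOC113651892) and 1 lower (*scg2*, not called with rows that carry no gene name left out) among 12. Without Rec-2 none of the 3 was called, and the number higher was 1 without Rec-3, Ctrl-2 or Ctrl-3. Of 4 goblet cell markers only *agr2*, needed for mucin folding, was called, and it was higher in Rec. It was at 94.2, 56.5 and 709 FPKM in Rec against 68.7, 68.6 and 73.6 FPKM in Ctrl. The call of *agr2* was lost without Rec-3 and without each Ctrl fish. *muc13*, with a mucin-2-like product, leaned lower without overlap, at a mean of 1.696 FPKM in Rec against 3.496 FPKM in Ctrl (log2 fold change -0.877). The groups overlapped in the Ets factor LOC113642674 (log2 fold change -0.231) and in the mucin-2-like LOC113653937 (0.098). *syngr3*, a vesicle protein that the study picked on these samples, was at 1.21, 1.09 and 1.04 FPKM in Rec, against 1.44, 1.11 and 1.31 FPKM in Ctrl and was not called.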

How the data were processed

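RNA of the posterior intestine was sequenced on an Illumina NovaSeq, and the authors used Cutadapt 1.9 for trimming and the *T. fulvidraco* genome for mapping. The submitters' processing notes name HISAT and StringTie, without versions or roles. No source used here gives the genome build or the counting step. FPKM values and estimated counts per gene were deposited by the authors, the counts already as whole numbers. Reads of a hybrid were mapped to a single parent species, and its part in the values was not tested. Read pairs were usually worth 4 counts, so 12 counts (3 pairs) served as the floor, and intervals from counts would cover counting error only. Assembled loci with no gene name (778 of those tested) held 4.06% of the counts. They stayed in library sizes and tests and out of the named genes, and a fit without them was added after seeing the data. A locus identifier is the only name of 14758 genes, and 350 tested rows merge several loci.

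Groups came from the labels. Genes reaching 1 FPKM in 3 or more of the 9 libraries were fitted with edgeR 4.0.16 (TMM scaling, quasi-likelihood F-test, 9 libraries sharing a spread, contrast Rec over Ctrl, Benjamini-Hochberg adjustment) in R 4.3.3. Standard errors were derived from the log2 fold change and F. FPKM was used for levels and overlap, and summed levels cover all entries of a list, tested or not. DESeq2 1.42.0 and limma 3.58.1 on log2(FPKM + 1) or log2(FPKM + 0.1) were alternatives, beside other filters, RLE scaling, a replicate block, counts divided by 4, the 6 libraries alone and each library left out in turn. The fits were tested on simulated data. With 3 against 3 fish, an exact permutation test of a single value cannot go below 0.1, so none is given. P-values measure the spread between these fish.

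Genes were named by rule: the 12 largest rises and 12 largest falls with an informative name, at least 5 FPKM in the higher group, an unadjusted p below 0.05 and no overlap; the 3 smallest p in each of 43 lists; the genes the study measured by qRT-PCR; and the 5 smallest DESeq2 adjusted p in each direction. Others were chosen after their values were seen. The members and lists were chosen with earlier results of these data known. After results were seen, 20 entries of 7 lists (19 tested) that matched a symbol pattern but are other genes, such as *iglon5* among immunoglobulins, were removed by identity. Scaffold positions are not printed. A gene named by the rule is not reported here and enters only list totals.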

Additional observations from a re-analysis of the deposited data

How the results depend on the processing

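No edgeR call at an adjusted p below 0.05 became 115 with DESeq2 and 1 with limma on log2(FPKM + 0.1), and leaving out a library gave 0 to 2 in edgeR and, in DESeq2 fits added after seeing the data, 424, 137 and 210 without Rec-1, Rec-2 and Rec-3 and, with a Ctrl fish left out, 170 (Ctrl-1), 57 (Ctrl-2) and 69 (Ctrl-3). The 691 genes called by the study's criteria became 1122 with no filter, 357 with at least 5 FPKM in 3 libraries and 500 to 1203 without single libraries. With rows that carry no gene name left out, added after seeing the data, 0 genes passed an adjusted p of 0.05, 666 were called (441 higher, 225 lower) and 987 had an unadjusted p below 0.05. The 1002 genes at an unadjusted p below 0.05 became 635 with the stricter filter and 605 to 1623 without single libraries. The 372 genes whose groups did not overlap and differed by 2-fold became 227 with the stricter filter, 1721 with no fold limit, 594 with FPKM + 0.1 and 507 to 1012 without single libraries. On TMM-scaled CPM, added after seeing the data, they were 253 higher and 201 lower, against 148 higher and 224 lower in FPKM. Of 146 named genes 101 were called, and 44 of these kept the call under every alternative run. Parvalbumin LOC113638038 had a log2 fold change of 6.44, which reversed to -2.36 without Rec-2 and reached 7.02 without Rec-1; the cause was not tested.

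Deviations from the group means correlated at 0.06, -0.26 and 0.19 between Rec and Ctrl fish of the same replicate number (1, 2 and 3). Between fish of unlike numbers the correlations ran from -0.31 to 0.30. With so few fish these values cannot show whether replicate numbers pair the fish. A replicate block gave 0 genes at an adjusted p below 0.05, 548 by the study's criteria (317 higher, 231 lower) and 775 at an unadjusted p below 0.05. Depth limits genes with 12 counts or fewer in a group, for which only bounds on the fold are given.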
